A study of Homo sapiens with 4 samples.

Results

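Cadherins and protocadherins are calcium-dependent adhesion proteins of the cell surface, and this account describes their genes in the nuclei of enteric ganglioids. The 92 genes were all those of the count matrices whose symbol is CDH or PCDH, optional letters and a number, out of 36601 genes. All 92 held at least 1 unique molecular identifier (UMI, one counted RNA molecule), from 8 to 79003 per gene and 322761 in all. They comprised 5 classical type I cadherins, 13 type II cadherins, 5 atypical cadherins, 5 cadherin-related genes, 3 delta-1, 5 delta-2 and 3 other nonclustered protocadherins, and 15 alpha, 16 beta and 22 gamma clustered protocadherins. Stage 1 enteric ganglioids are free-floating aggregates differentiated through enteric neural crest from H9, a human embryonic stem cell line, here in suspension. Their nuclei were profiled in 2 control samples and in 2 samples that had received 2 µM PP121, a kinase inhibitor that acts on more than a single receptor tyrosine kinase, from day 15 to day 20. Each sample was a biological replicate of the same line, and each pooled several ganglioids. The replicate number does not tell whether control and PP121 samples shared a differentiation. The deposited annotation dates replicate 1 of both groups to day 42 and replicate 2 to day 38, so that day and replicate number cannot be told apart.

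The classes and the transmitter identities of nuclei are the authors' annotation, which kept 4283 and 3030 nuclei of the control samples and 4587 and 2912 of the PP121 samples, with 23348045 to 34123759 UMIs per sample and a median of 6289 to 7071 per nucleus. Libraries shared between 0 and 8 barcodes, at most 0.1868% of the smaller library. Where 4 values are given in a row below, they stand for control replicate 1, control replicate 2, PP121 replicate 1 and PP121 replicate 2. Levels are CPM, the UMIs of a gene per 1000000 UMIs of the class in that sample, and errors of means are SD over the 4 samples. These tags are counted at the 3′ end and with no correction for gene length, so levels are compared between classes for the same gene and not between genes. UMIs rose with gene span, with a Spearman correlation of 0.288 over the 92 members and 0.524 over 19674 genes with at least 100 UMIs. Where genes or subfamilies are ranked below, the ranks are of UMIs and not of abundance. Enteric neurons held all 11 of the neuron markers used by the study, summing to between 7822 and 10785 CPM against 1368 to 1828 CPM in progenitors. The class labelled epithelial (9 to 37 nuclei per sample) was little set apart by its markers EPCAM and KRT19. EPCAM stood at 14.9, 5.08, 15.5 and 10 CPM there and at 16.8, 3.59, 10.1 and 7.20 CPM in mesenchymal nuclei, and KRT19 was listed at 0 in 3 of its 4 samples. Its other marker, CDH1, was higher there than in mesenchymal nuclei in every sample, from 9, 9, 1 and 1 UMIs, and is described below. The class labelled unknown (60 to 211 nuclei) has no cell type in the annotation and is called unknown here.

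Classical cadherins join like cells through an adhesive outer part and hold the actin cytoskeleton through beta, delta and alpha catenins. Type I cadherins, such as E-cadherin (CDH1) and N-cadherin (CDH2), give strong adhesion in epithelia and neural tissue, while type II cadherins are expressed in combinations that differ between neuron groups. Protocadherins adhere more weakly, and the clustered alpha, beta and gamma genes are known for giving single neurons distinct surface identities through choice of promoter. Neural crest cells, the origin of enteric neurons, are known for exchanging cadherin types as they leave the neural tube and migrate.

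Most of the family sits at a single locus. In the GENCODE release 29 annotation (GRCh38), 61 of the 92 members were on chromosome 5, among them all 53 clustered protocadherins on the plus strand. The alpha cluster covers positions 140786136 to 141012347, the beta cluster 141051135 to 141249365 and the gamma cluster 141330571 to 141512981. All 15 alpha and all 22 gamma members share the start of a last exon with another member, whereas none of the 16 beta members does. A count at the 3′ end can therefore be split among alpha or gamma members in a way that the deposited files do not show, and single alpha and gamma values are uncertain. Whether reads that matched several members were dropped is not given in the sources used here, so the alpha and gamma sums may be too low by an amount that was not tested. Clustered genes have promoters of their own before their first exons, most with a short conserved element that carries the letters CGCT in all 3 clusters. The windows below, read from RefSeq promoters of GRCh38.p14 (72 of the 92 members matched), show 30 bases on each side of the string of 9 bases with CGCT that stood in the largest number of promoters of its cluster, before 7 of the 9 clustered genes with the most UMIs in neurons. Capitals mark that string, GATGTCGCT in alpha, GGTGGCGCT in beta and GCGCCGCTG in gamma promoters, all plus strand.
PCDHA4 at chr5:140806960-140807028: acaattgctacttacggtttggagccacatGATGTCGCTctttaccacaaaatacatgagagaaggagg
PCDHA10 at chr5:140855822-140855890: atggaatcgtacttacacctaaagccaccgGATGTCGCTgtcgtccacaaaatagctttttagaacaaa
PCDHB2 at chr5:141094525-141094593: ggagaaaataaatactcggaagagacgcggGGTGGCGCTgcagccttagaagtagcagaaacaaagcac
PCDHB9 at chr5:141187055-141187123: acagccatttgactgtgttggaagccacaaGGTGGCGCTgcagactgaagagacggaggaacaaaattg
PCDHB16 at chr5:141182291-141182359: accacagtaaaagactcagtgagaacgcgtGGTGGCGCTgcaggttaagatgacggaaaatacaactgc
PCDHGA10 at chr5:141412913-141412981: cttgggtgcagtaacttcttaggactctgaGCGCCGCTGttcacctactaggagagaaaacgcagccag
PCDHGB6 at chr5:141407906-141407974: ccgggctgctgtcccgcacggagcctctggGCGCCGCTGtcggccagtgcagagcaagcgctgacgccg

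The core of 4 letters was chosen after the sequences were seen, and the strings were searched on both strands of the window from 250 bases before to 50 after the RefSeq start. GATGTCGCT stood in 9 of 13 alpha promoters and in 0.128% of all 27305 promoters. GGTGGCGCT stood in 13 of 14 beta promoters and in 0.619% of all, and GCGCCGCTG in 10 of 20 gamma promoters and in 1.59% of all. Each string was found in promoters of its own cluster and in none of the other 2 clusters. A match describes the letters only and is not a measure of binding.

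Enteric neurons devoted more of their UMIs to the family than progenitors did. The 92 members together took 3788, 3459, 4014 and 3255 CPM in enteric neurons, 1923, 2076, 1943 and 2211 CPM in progenitor 2 and 1077, 1102, 1073 and 1401 CPM in progenitor 1. The samples of these 3 classes did not overlap. In mesenchymal nuclei the family took 2174 ± 366 CPM and in unknown nuclei 3326 ± 397 CPM. The delta-1 protocadherins (PCDH1, PCDH7, PCDH9) carried the largest sum in neurons, 1332 ± 220.0 CPM against 138 ± 26.7 CPM in progenitor 1 and 303 ± 32.5 CPM in progenitor 2. Type II cadherins followed at 1032 ± 118 CPM in neurons, 174 ± 14.7 CPM in progenitor 1 and 1191 ± 302 CPM in mesenchymal nuclei. Type I cadherins ran the other way between neurons and progenitor 2, at 526 ± 38.8 and 799.9 ± 139.6 CPM. The sums of the clustered genes in neurons and progenitor 1 were 156 ± 10.3 and 71.2 ± 8.98 CPM for alpha, 216 ± 23.2 and 118 ± 1.71 CPM for beta, and 82.5 ± 4.56 and 38 ± 2.14 CPM for gamma. All 3 clusters were higher in neurons than in either progenitor class in every sample.

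**Figure D1:**
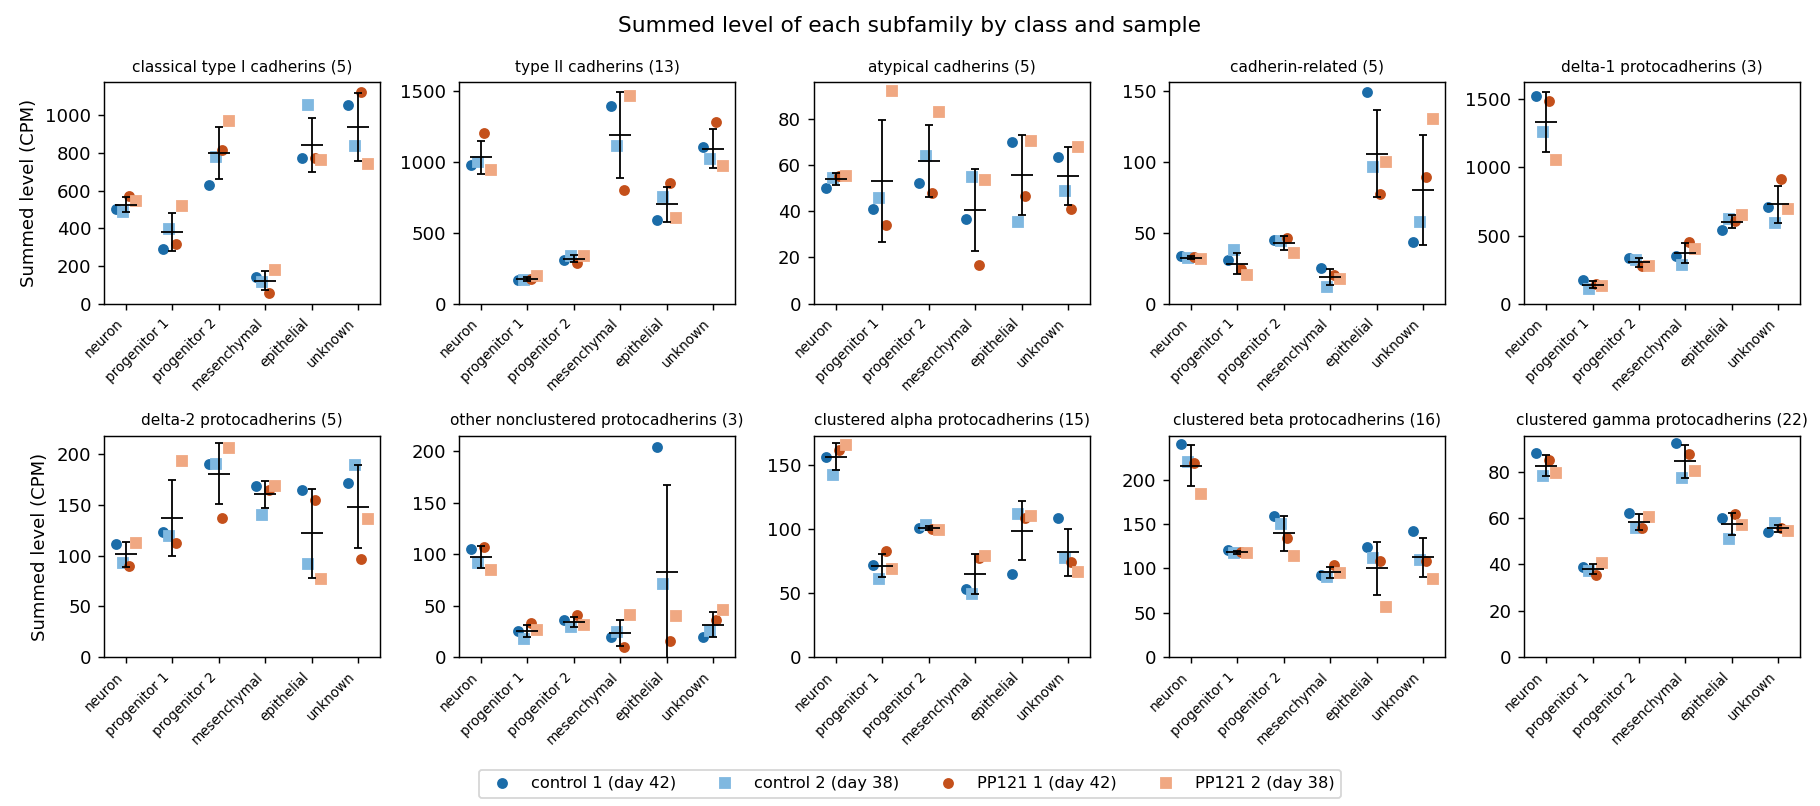
Summed level of each subfamily (CPM, vertical axis) in the 6 annotated classes, with 1 point per sample and bars for the mean ± SD over 4 samples. Delta-1 and type II members stood highest in neurons among the neural classes, at 1332 and 1032 CPM on average, and type I members were higher in progenitor 2 (799.9 CPM) than in neurons (526 CPM).

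The classes came from clustering of the same counts, members included, so differences between classes are described here by the ranges of the 4 samples and not tested. Among 85 members with at least 20 UMIs, 35 had all 4 neuron values above all 4 progenitor values, beside 14.7% of all genes, and 7 lay wholly below, beside 16.3% of all genes. The 35 held 10 alpha, 9 beta and 5 gamma clustered members, with CDH3, CDH7, CDH12, CDH13, CDH17, CDH18, CDH22, CDHR2, PCDH7, PCDH9 and PCDH15. The 7 lower members were CDH2, CDH6, CDH23, CDHR1, CDHR3, PCDH18 and PCDH19. Between the progenitor classes, 28 of 78 members were wholly lower in progenitor 1 (21.1% of all genes) and only PCDH1 was wholly higher (15.1% of all genes). Mesenchymal nuclei lay above progenitors for 9 of 79 members (7.95% of all genes) and below for 12 (16.1%), and above neurons for 5 of 83 (10.8%) and below for 34 (19.6%). CDH6, CDH11, PCDH18 and PCDHGB4 were in both sets of higher mesenchymal genes.

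Among type I cadherins, CDH2 (N-cadherin, on chromosome 18, the main cadherin of neural tissue) was present in every neural class. Its level was 464, 591, 578 and 685 CPM in progenitor 2, 247, 338, 265 and 426 CPM in progenitor 1 and 267, 305, 319 and 372 CPM in neurons. Unknown nuclei held 874, 786, 891 and 649 CPM and mesenchymal nuclei 67.3, 69.1, 30.3 and 127 CPM, with no overlap between the mesenchymal samples and any other class. After each nucleus was thinned to 2000 UMIs, 59.5 ± 5.31% of progenitor 2 nuclei, 40.5 ± 2.44% of neurons and 10.5 ± 3.60% of mesenchymal nuclei held a CDH2 UMI, and without thinning 84.8%, 74.1% and 27.2%. CDH4 (R-cadherin, an adhesion protein of retina and brain) stood at 205, 149.7, 217 and 141 CPM in neurons, 155, 173, 228 and 274 CPM in progenitor 2 and 30.6, 45.4, 44.3 and 86.4 CPM in progenitor 1. CDH4 was lower in progenitor 1 than in the other neural classes in every sample. CDH3 (P-cadherin) was low and, on average, highest in neurons, at 28.9, 29.5, 32.5 and 28.7 CPM against 6.82, 6.27, 7.26 and 6.24 CPM in progenitor 1. CDH1 (E-cadherin, the defining cadherin of epithelia) reached 44.8, 45.7, 15.5 and 3.35 CPM in the class labelled epithelial, from 9, 9, 1 and 1 UMIs, and 1.48 ± 0.401 CPM in neurons. CDH1 is a marker that the study used for this class, so its level there is not an independent result.

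Type II cadherins divided by class more sharply. CDH18 and CDH12 are neighbours on the short arm of chromosome 5, each spread over about 1103 kb (CDH18 at chr5:19472951-20575873 and CDH12 at chr5:21750673-22853622, both on the minus strand). CDH18, a type II cadherin of the nervous system, stood at 547, 469, 664 and 279 CPM in neurons and 21.7, 15.3, 29.2 and 20.7 CPM in progenitor 1. CDH12 (N-cadherin 2, also neural) stood at 239, 353, 349 and 448 CPM in neurons and 19.2, 14, 28.1 and 21.3 CPM in progenitor 1. For both genes every neuron value lay above every progenitor value, while the neuron samples differed among themselves, with PP121 replicate 2 lowest for CDH18 and highest for CDH12. At 2000 UMIs per nucleus, 22.3 ± 6.73% of neurons held a CDH18 UMI (32.1% without thinning) against 2.68 ± 0.706% of progenitor 1 nuclei (5.38% without thinning). How much of either share came from RNA outside the nuclei was not tested. Medians before thinning were 7222 to 8110 UMIs in neurons and 4922 to 5958 in progenitor 1. CDH7, expressed by migrating neural crest, stood at 48.7, 28.3, 42.1 and 27.3 CPM in neurons, 1.77, 5.02, 5.27 and 11.8 CPM in progenitor 1 and 53.3, 40.1, 30.3 and 61.3 CPM in mesenchymal nuclei. CDH8, CDH10 and CDH20 were shared between neurons and progenitors, for example 33.8, 36.4, 39.8 and 25.1 CPM of CDH8 in neurons and 55.9, 44.4, 60.7 and 34.4 CPM in progenitor 2. CDH10 averaged 33.4 ± 9.28 CPM in neurons and 57.5 ± 9.01 CPM in progenitor 2.

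CDH11 was highest in mesenchymal nuclei and CDH6 in unknown nuclei. CDH11 (OB-cadherin, a cadherin of mesenchyme, at chr16:64943753-65126112) stood at 964, 794, 595 and 1048 CPM in mesenchymal nuclei, 234, 325, 325 and 308 CPM in those labelled epithelial and 13.4, 15.1, 15.5 and 15.6 CPM in neurons. At 2000 UMIs, 63.3 ± 4.90% of mesenchymal nuclei and 2.49 ± 0.425% of neurons held a CDH11 UMI, and without thinning 88.6% and 7.15%. CDH6 (K-cadherin, found in kidney and in migrating neural crest, at chr5:31193750-31329146) stood at 505, 638, 787 and 488 CPM in unknown nuclei and at 6.44, 5.77, 6.59 and 9.14 CPM in neurons. Its highest value in any other class was 165 CPM, in mesenchymal nuclei. CDH19, a cadherin known from glial precursors of the neural crest, stood at 50.5, 78.5, 0 and 43.5 CPM in mesenchymal nuclei and at most 3.89 CPM in any other class. Its 18 UMIs in control replicate 1 came from 3 nuclei, its 284 UMIs in control replicate 2 from 22 nuclei and its 151 UMIs in PP121 replicate 2 from 12 nuclei. CDH19 was found in 0 of 33 mesenchymal nuclei of PP121 replicate 1, which at this depth allows up to 9.09% of nuclei with a CDH19 UMI (3 counts, counting error only) and does not limit the nuclei that express it without a UMI. CDH20 averaged 80.8 ± 21.7 CPM in mesenchymal nuclei and 67.8 ± 29.3 CPM in progenitor 2. CDH5 (VE-cadherin, the defining cadherin of endothelium) stayed between 2.28 and 7.76 CPM in neurons.

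PCDH9 and PCDH7 carried most of the protocadherin UMIs of neurons. PCDH9 (chr13:66302834-67230445, a delta-1 protocadherin of the developing nervous system) stood at 1341, 1120.5, 1302 and 897 CPM in neurons, 262, 254, 207 and 173 CPM in progenitor 2 and 134, 72.7, 107 and 87.4 CPM in progenitor 1. At 2000 UMIs 48.2 ± 8.87% of neurons and 10.9 ± 1.59% of progenitor 1 nuclei held a PCDH9 UMI, and without thinning 62.5% and 21.1%. PCDH7 (NF-protocadherin, known from axon growth, at chr4:30720415-31146805) stood at 170.3, 120.3, 169.7 and 139.6 CPM in neurons, 23.5, 10.3, 20.4 and 15.4 CPM in progenitor 1 and 331, 459.5, 544 and 563 CPM in unknown nuclei. Unknown nuclei were thus above neurons in every sample for PCDH7 and below them in every sample for PCDH9. PCDH1, the third delta-1 member, ran against this pattern, at 13.9, 25.1, 16.7 and 26.3 CPM in progenitor 1 and 8.28, 12.4, 9.84 and 7.26 CPM in progenitor 2. Delta-2 protocadherins, which bind the actin-regulating WAVE complex, were more even as a sum. They summed to 102 ± 12.2 CPM in neurons, 137 ± 37.5 CPM in progenitor 1 and 181 ± 30.3 CPM in progenitor 2. Single members were less even, and PCDH18 and PCDH19 lay wholly lower in neurons than in progenitors. PCDH17 averaged 71.2 ± 17.4 CPM in progenitor 2 and 36.8 ± 11.2 CPM in neurons, and PCDH19 averaged 54.1 ± 8.81 and 25.7 ± 2.07 CPM. PCDH18 stood at 4.12, 7.85, 4.46 and 11 CPM in neurons, 24.6, 40.9, 28.1 and 43.4 CPM in progenitor 2 and 42, 43.1, 111 and 38.6 CPM in mesenchymal nuclei, with every neuron value below every progenitor value. PCDH10 (OL-protocadherin) averaged 30 ± 13.8 CPM in neurons and 24.2 ± 3.78 CPM in progenitor 1.

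**Figure D2:**
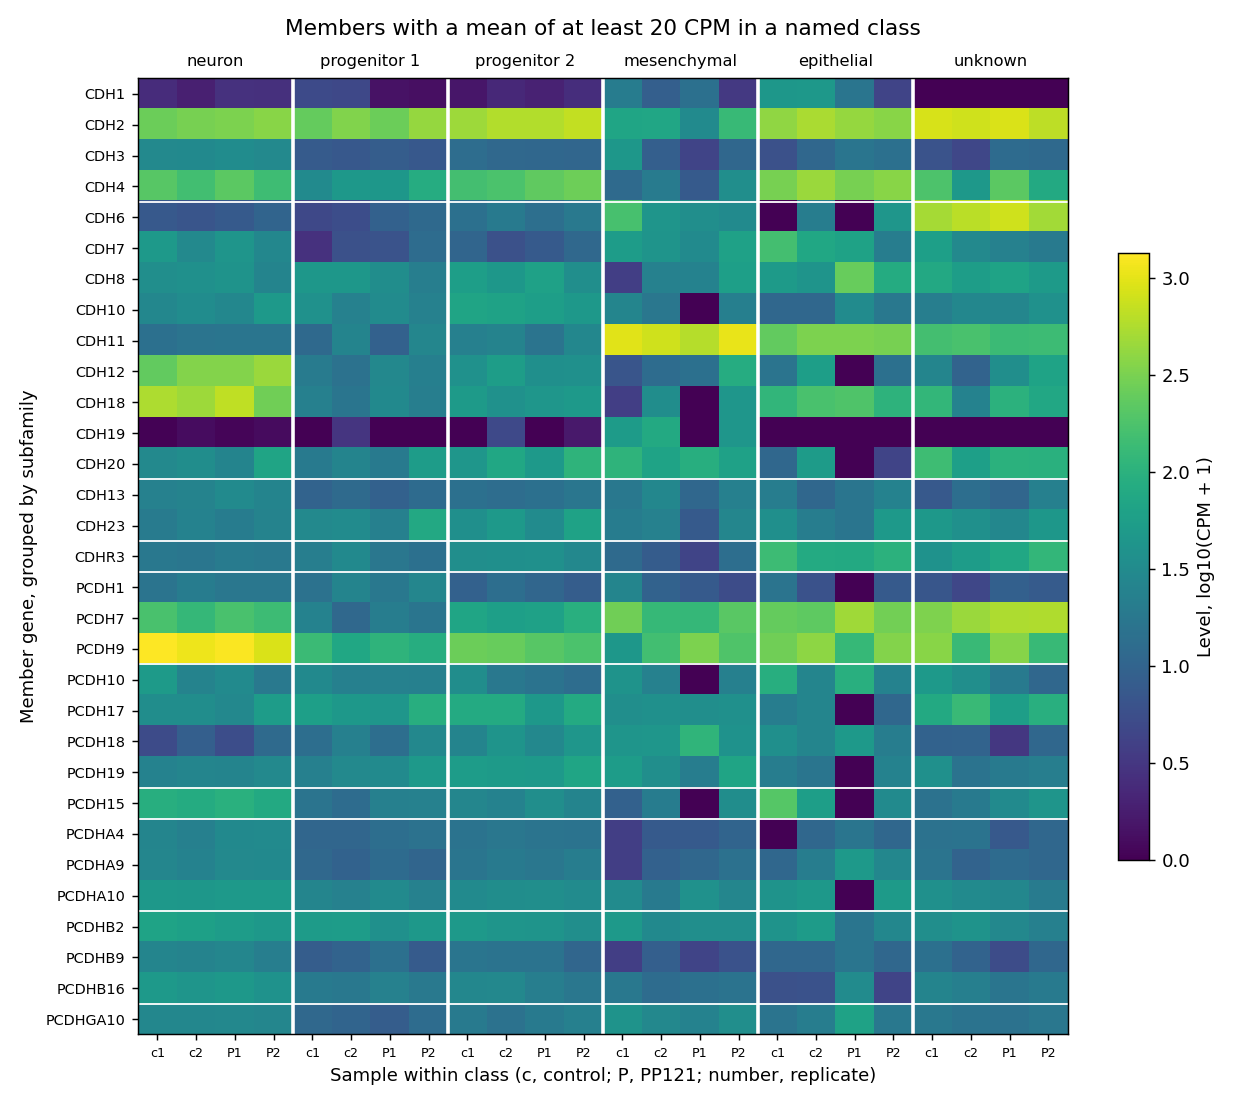
Heat map of the 31 members with a mean of at least 20 CPM in a named class, one line per gene and one column per sample within each of the 6 annotated classes, with colour for log10(CPM + 1). PCDH9, CDH18 and CDH12 are bright in the neuron columns, CDH11 in the mesenchymal columns (595 to 1048 CPM) and CDH6 in the unknown columns (488 to 787 CPM), while CDH2 is bright in all classes except mesenchymal.

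The clustered protocadherins were low per gene and widespread. Of 53 clustered members, 7 reached a mean of 20 CPM in a class, namely PCDHA4, PCDHA9, PCDHA10, PCDHB2, PCDHB9, PCDHB16 and PCDHGA10, whose promoter windows are printed above except for PCDHA9. PCDHA10 stood at 46.1, 44.4, 48.1 and 48.3 CPM in neurons and 25.5, 22.6, 30.8 and 23 CPM in progenitor 1. PCDHB16 stood at 46.5, 41.8, 45.7 and 38.7 CPM in neurons and 17.9, 17.1, 22.4 and 17.4 CPM in progenitor 1. PCDHB2 was the exception among them, at 65, 59, 52.5 and 45.1 CPM in neurons and 51.5, 52.4, 36.3 and 45 CPM in progenitor 1, with overlapping samples. PCDHGA10 was near its neuron level (27.2, 27.1, 28.2 and 26.5 CPM) in mesenchymal nuclei (39.2, 27.9, 23.6 and 34.3 CPM) and lower in progenitor 1 (10.4, 9.28, 7.26 and 11.8 CPM). At full depth between 62.1% and 65.4% of neurons held a UMI of at least 1 alpha member, 66.9% to 74.6% of a beta member and 42.4% to 44.7% of a gamma member. UMIs of 2 or more different members were held by 29.04% to 32.9% of neurons for alpha, 38.3% to 43.2% for beta and 13.3% to 14.3% for gamma. In progenitor 1, whose nuclei were shallower, the shares with at least 1 member were 27.3% to 31.9% for alpha, 41.3% to 46.1% for beta and 16.4% to 20.8% for gamma. No member gave more than 8 UMIs in a neuron, and the set used by a single neuron was not detectable at this depth. No class that should lack clustered protocadherins was at hand to give a background share, so the part of free RNA in these shares was not tested, and the shares with 2 or more alpha or gamma members also carry the uncertain split of counts between members.

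The remaining members were fewer and lower. PCDH15 and CDH23, the partners that form the tip link of sensory hair cells, went opposite ways, PCDH15 at 91.1, 82.8, 94.3 and 77.8 CPM in neurons and 26.5, 23.5, 33.7 and 25 CPM in progenitor 2, and CDH23 at 19.3, 23.5, 19.7 and 23.9 and 35.1, 46.4, 31.4 and 61.9 CPM. CDH13 (T-cadherin, held to the membrane by a lipid anchor and without a catenin-binding tail) averaged 25.3 ± 3.24 CPM in neurons and 9.91 ± 1.60 CPM in progenitor 1. CDHR3, a cadherin-related gene known from ciliated airway cells, stood at 139.5, 81.2, 77.4 and 100.4 CPM in nuclei labelled epithelial, 38.4, 52.3, 72.3 and 117 CPM in unknown nuclei and 17, 16.1, 18.9 and 17.4 CPM in neurons. In unknown nuclei that held a UMI of a motile cilia marker (20, 10, 34 and 38 nuclei), CDHR3 stood at 41.7, 63.6, 214 and 233 CPM, and in the others (156, 50, 177 and 83 nuclei) at 37.8, 48.9, 32.9 and 29.6 CPM. Cilia-positive nuclei were deeper, with medians of 10646 to 13945 UMIs against 7141 to 8419, and the part of depth in this was not tested.

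Partners of the family followed the classes too. Of 12 catenins and other cytoplasmic partners, CTNNA2 (alpha N-catenin, the neural link to actin) averaged 1418 ± 304 CPM in neurons and 89 ± 36 CPM in progenitor 1, and CTNND2 (delta-catenin) averaged 638 ± 94.5 CPM in neurons, 214 ± 45.2 CPM in progenitor 1 and 701 ± 159 CPM in progenitor 2. CTNNB1 (beta-catenin) averaged 198 ± 16.6 CPM in neurons and 422 ± 78.4 CPM in progenitor 1. Among other cadherin superfamily genes, PCDH11X, a delta-1 type protocadherin outside the symbol rule, averaged 279 ± 21.4 CPM in neurons and 46 ± 25.2 CPM in progenitor 1, and FAT4 averaged 503 ± 104 CPM in progenitor 2 and 99.9 ± 12.8 CPM in neurons. Of the repressors of CDH1 transcription, ZEB1 averaged 1429 ± 1047 CPM and TWIST1 126 ± 61 CPM in mesenchymal nuclei, against 495 ± 135 and 0.954 ± 1.07 CPM in neurons. TWIST1 is a marker that the study used for the mesenchymal class, so its level there is not an independent result. CDH1 itself was not lower in mesenchymal nuclei. Every CDH1 value there lay above every neuron value, from 7, 28, 4 and 8 UMIs.

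Neurons were next compared by transmitter identity. The authors called an identity from imputed values, for nitrergic neurons a NOS1 value above 0 together with a nitric oxide gene score above 0, and 56.0% to 66.5% of neurons carried 2 or more identities. Because imputation draws on all genes, the members included, tests of the deposited identities are not independent of the members. The independent comparison is between neurons with and without a UMI of the marker gene (NOS1, CHAT, SLC17A6, GAD1 or GAD2, TPH2 or TPH1, TH). It used all 2301, 1250, 2030 and 976 neurons. Comparisons and shares of the deposited identities used the 2285, 1234, 1887 and 915 neurons with a subtype in the annotation, so the 2 sets of neurons differ more in the PP121 samples. Nuclei with a marker UMI were deeper, with medians of 8308.5 to 12217 UMIs against 6263.5 to 8019.5, and the part of depth was not tested. Both comparisons used edgeR's quasi-likelihood test on 8 sums with the sample as a block, adjusted by Benjamini and Hochberg over all genes, and differences are log2 fold changes ± SE.

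CDH18 was the member most set apart by the GABAergic identity. GABAergic neurons held 916, 1224, 1220.4 and 1163 CPM of CDH18 and other neurons 199, 178, 277 and 107 CPM, a difference of 2.70 ± 0.18 (adjusted p = 1.16e-05). Neurons with a GAD1 or GAD2 UMI held 730.1, 975, 1059.8 and 767 CPM and those without 307, 214, 324 and 129 CPM, a difference of 1.96 ± 0.15 (adjusted p = 7.98e-06). The groups did not overlap under either definition, and the difference was 1.85 ± 0.19 when only neurons with a single identity entered as GABAergic. In all, 8 of 74 members tested were called by the deposited identity, beside 7.85% of all genes, and 9 of 74 by the marker UMI, beside 5.71% of all genes. The median over members was 0.15, against -0.01 over all genes. The 6 called the same way by both were CDH4, CDH7, CDH13, CDH18 and PCDH9, which were higher, and CDH8, which was lower. CDH7 stood at 61.5, 44.6, 58.9 and 38.6 CPM with and 36.8, 22.4, 28.6 and 23.5 CPM without the identity, and differed by 0.81 ± 0.10 by marker UMI (adjusted p = 1.80e-04). CDH4 stood at 243, 225, 295 and 162 and 168, 120.4, 149.6 and 134 CPM and differed by 0.68 ± 0.06 by marker UMI (adjusted p = 3.55e-05). CDH8 differed by -0.80 ± 0.21 and by -0.58 ± 0.10 by marker UMI, although PP121 replicate 2 ran the other way under the deposited identity (24.6, 16.3, 22.6 and 30 CPM with, 41.9, 44.3, 53.9 and 22.6 CPM without). With a single identity per neuron, 2 of 55 members were called, beside 240 of 15600 genes, and of the 8 only CDH18 was among them. CDH7 and CDH13 changed sign in that fit. Leaving out control replicate 1 raised the count to 13 of 72 members, beside 1595 of 19113 genes.

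Nitrergic neurons were higher in the delta-1 protocadherins PCDH7 and PCDH9. PCDH7 stood at 273, 266, 471 and 503 CPM in nitrergic and 146, 88.9, 106 and 101 CPM in other neurons, with no overlap, a difference of 1.78 ± 0.19 (adjusted p = 3.79e-05). Split by a NOS1 UMI, it stood at 284, 125, 245 and 482 and 167, 120.2, 168 and 130.3 CPM, a difference of 0.80 ± 0.15 (adjusted p = 1.34e-04), with control replicate 2 close to even. PCDH9 stood at 2382, 2185, 2883 and 3443 CPM with and 1092, 888, 1027 and 639 CPM without the identity, and by NOS1 UMI at 1456, 1672, 1523 and 4784 and 1337, 1104, 1296 and 792 CPM. Its differences were 1.63 ± 0.17 and 0.81 ± 0.14 (adjusted p = 2.75e-05 by NOS1 UMI), again largest in PP121 replicate 2, where 20 neurons held a NOS1 UMI. Of 71 members tested, 14 were called by the deposited identity, beside 11.7% of all genes, and 2 of 70 by NOS1 UMI, beside 1.03%, namely PCDH7 and PCDH9. Members had a median of 0.09, against -0.01 over all genes. The other 12 called by the deposited identity were CDH3, CDH4, CDH8, CDH10, CDH11, CDH13, CDH18, CDH22, PCDH1 and PCDH15, which were higher, and PCDH18 and PCDHB2, which were lower. CDH11 differed by 1.76 ± 0.20 and by 1.07 ± 0.33 by NOS1 UMI (adjusted p = 0.104), and PCDH15 by 1.30 ± 0.13 and 0.60 ± 0.17 (adjusted p = 0.0578). CDH18 changed sign, from 1.30 ± 0.26 by the deposited identity to -0.23 ± 0.13 by NOS1 UMI (adjusted p = 0.781), and so did CDH13 and CDH22. A NOS1 UMI was held by 9.1% to 18.7% of nitrergic neurons. Without PP121 replicate 1 the deposited identity called 9 of 70 members, beside 1243 of 18698 genes. With a single identity per neuron CDH10 changed sign.

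**Figure D3:**
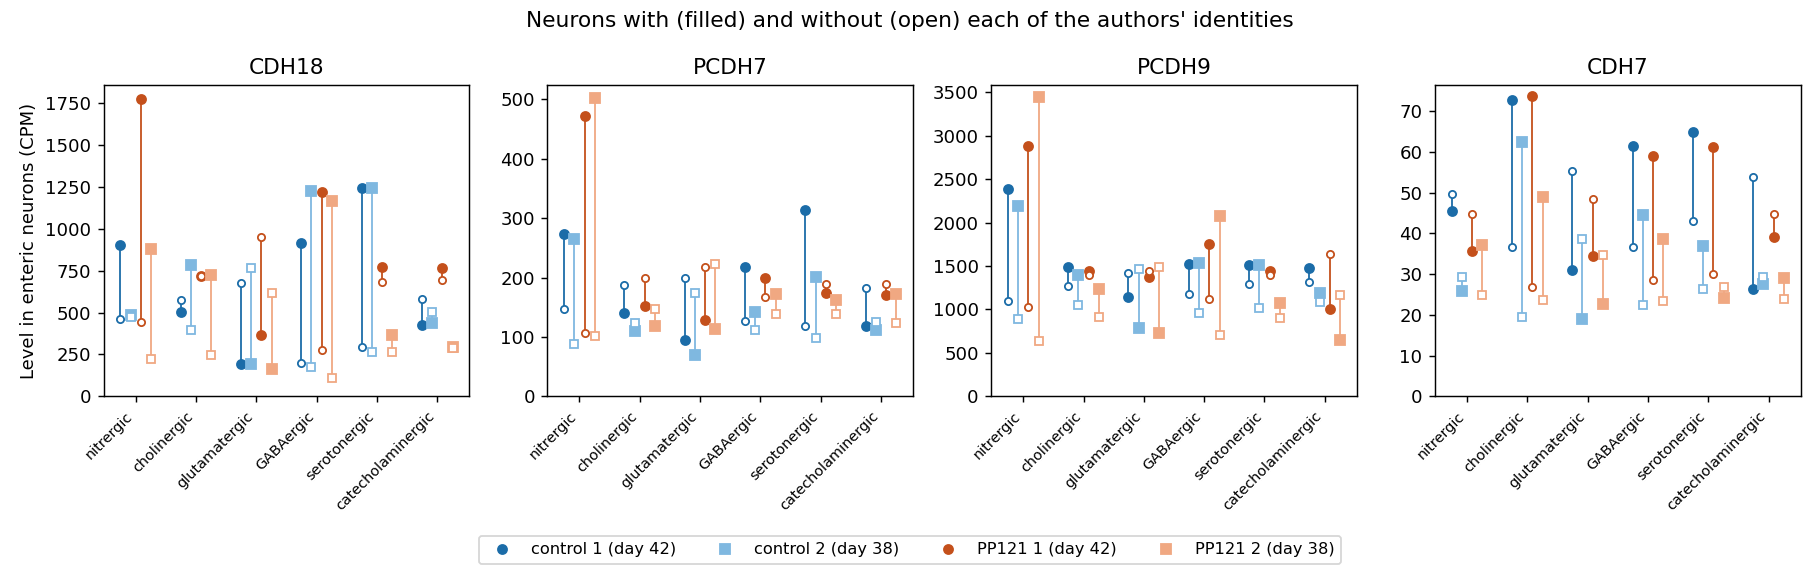
CPM of CDH18, PCDH7, PCDH9 and CDH7 in enteric neurons with and without an identity, one point per sample. CDH18 in GABAergic neurons lies between 916 and 1224 CPM and in other neurons between 107 and 277 CPM.

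Cholinergic neurons differed in fewer members by marker. The deposited identity called 12 of 73 members, beside 11.5% of all genes, and a CHAT UMI called 2 of 71, beside 2.53%. Over members the median was 0.18, against -0.02 over all genes. PCDH9, higher under both definitions, stood at 1489, 1399, 1442 and 1233 CPM with and 1275, 1048, 1401 and 911 CPM without the identity, a difference of 0.35 ± 0.07, and of 0.32 ± 0.07 by CHAT UMI (adjusted p = 0.0224). PCDH7, lower under both, stood at 139.9, 111, 152 and 118 and 187, 124, 199 and 148 CPM, a difference of -0.25 ± 0.07, and of -0.51 ± 0.10 by CHAT UMI (adjusted p = 0.0112). CDH7 showed the largest rise by the deposited identity, 72.7, 62.5, 73.7 and 49 CPM against 36.8, 19.6, 26.8 and 23.6 CPM (1.37 ± 0.12, adjusted p = 6.16e-06), and 0.58 ± 0.18 by CHAT UMI (adjusted p = 0.123). PCDH17 stood at 17.8, 12.9, 13 and 26.4 and 40.8, 36.6, 33.7 and 56.3 CPM by the deposited identity, a difference of -1.21 ± 0.12 (adjusted p = 1.31e-05). By CHAT UMI PCDH17 differed by -0.36 ± 0.24 (adjusted p = 0.589), with PP121 replicate 2 on the other side. CDH4, PCDHA10, PCDHB5 and PCDHB9 were also higher and CDH8, CDH10, CDH11 and PCDH18 lower by the deposited identity alone. Leaving out control replicate 2 gave 6 calls, beside 1273 of 19178 genes, and leaving out PP121 replicate 1 gave 6, beside 1062 of 19203 genes. With a single identity per neuron only CDH7 of 50 members was called, beside 94 of 15015 genes.

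For the glutamatergic identity the definitions disagreed in sign. The deposited identity called 14 of 69 members, beside 14.9% of all genes, 13 lower and PCDH17 higher, with a median of -0.05 over members and 0.00 over all genes. A UMI of SLC17A6, the vesicular glutamate transporter, called 8 of 69, beside 8.09% of all genes, all 8 higher. Of the 14, 10 had the opposite sign by SLC17A6 UMI, and 4 were called in both with opposite signs. PCDH7 stood at 95.5, 69.3, 129 and 113 CPM with and 199, 173, 218 and 224 CPM without the deposited identity (-1.04 ± 0.08, adjusted p = 6.49e-06). By SLC17A6 UMI it stood at 234, 239, 211 and 236 and 165, 91.8, 161 and 103 CPM (0.89 ± 0.14, adjusted p = 0.00145). CDH22, PCDH9 and PCDH15 were the other 3, at -0.44, -0.59 and -0.36 by the deposited identity and 0.95, 0.27 and 0.82 by SLC17A6 UMI. CDH18 stood at 195, 193, 369 and 162 CPM with and 678, 767, 951 and 618 CPM without the deposited identity (-1.78 ± 0.09, adjusted p = 2.43e-07), and differed by -0.22 ± 0.08 by SLC17A6 UMI (adjusted p = 0.118). CDH12, named here after its values were seen, stood at 481, 836, 697 and 959 CPM in neurons with and 218, 237, 273 and 255 CPM in neurons without a SLC17A6 UMI, with no overlap (1.59 ± 0.11, adjusted p = 2.20e-06). By the deposited identity CDH12 differed by -0.24 ± 0.17 (adjusted p = 0.388). A SLC17A6 UMI was held by 10.7% to 24.3% of neurons with and 5.8% to 19.4% of neurons without the glutamatergic identity.

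The last 2 identities had few calls. Serotonergic neurons differed in 4 of 72 members, beside 10.7% of all genes, and in 0 of 68 by TPH2 or TPH1 UMI, beside 0.0106% (edgeR, 5 members at an unadjusted p under 0.05, DESeq2 not run on marker UMIs). CDH18 stood at 1241, 1241, 769.6 and 364 CPM with and 297, 264, 685 and 268 CPM without the serotonergic identity (1.23 ± 0.29, adjusted p = 0.0251), closest to even in PP121 replicate 1, while CDH4 and CDH7 were higher and CDH9 lower. With a single identity per neuron CDH7 and CDH18 changed sign. Without control replicate 1 or 2 no member was called, beside 140 of 18940 and 458 of 18906 genes. Without PP121 replicate 2 the count was 8 of 72, beside 2586 of 19599 genes. Catecholaminergic neurons differed in 4 of 69 members, beside 4.8% of all genes, and in 0 of 67 by TH UMI, beside 0.499% (edgeR, 10 at an unadjusted p under 0.05). CDH12 stood at 218, 554, 531 and 575 CPM with and 244, 245, 241 and 353 CPM without the catecholaminergic identity (0.72 ± 0.16, adjusted p = 0.0248), with control replicate 1 on the other side. CDH10 was also higher and CDH20 and PCDH18 were lower. Without control replicate 2 there was 1 call, beside 226 of 18002 genes. Without PP121 replicate 1 or 2 there was also 1, beside 286 of 17505 and 635 of 18815 genes. The medians over members were 0.09 for serotonergic and -0.04 for catecholaminergic neurons, against 0.00 over all genes in both.

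**Figure D4:**
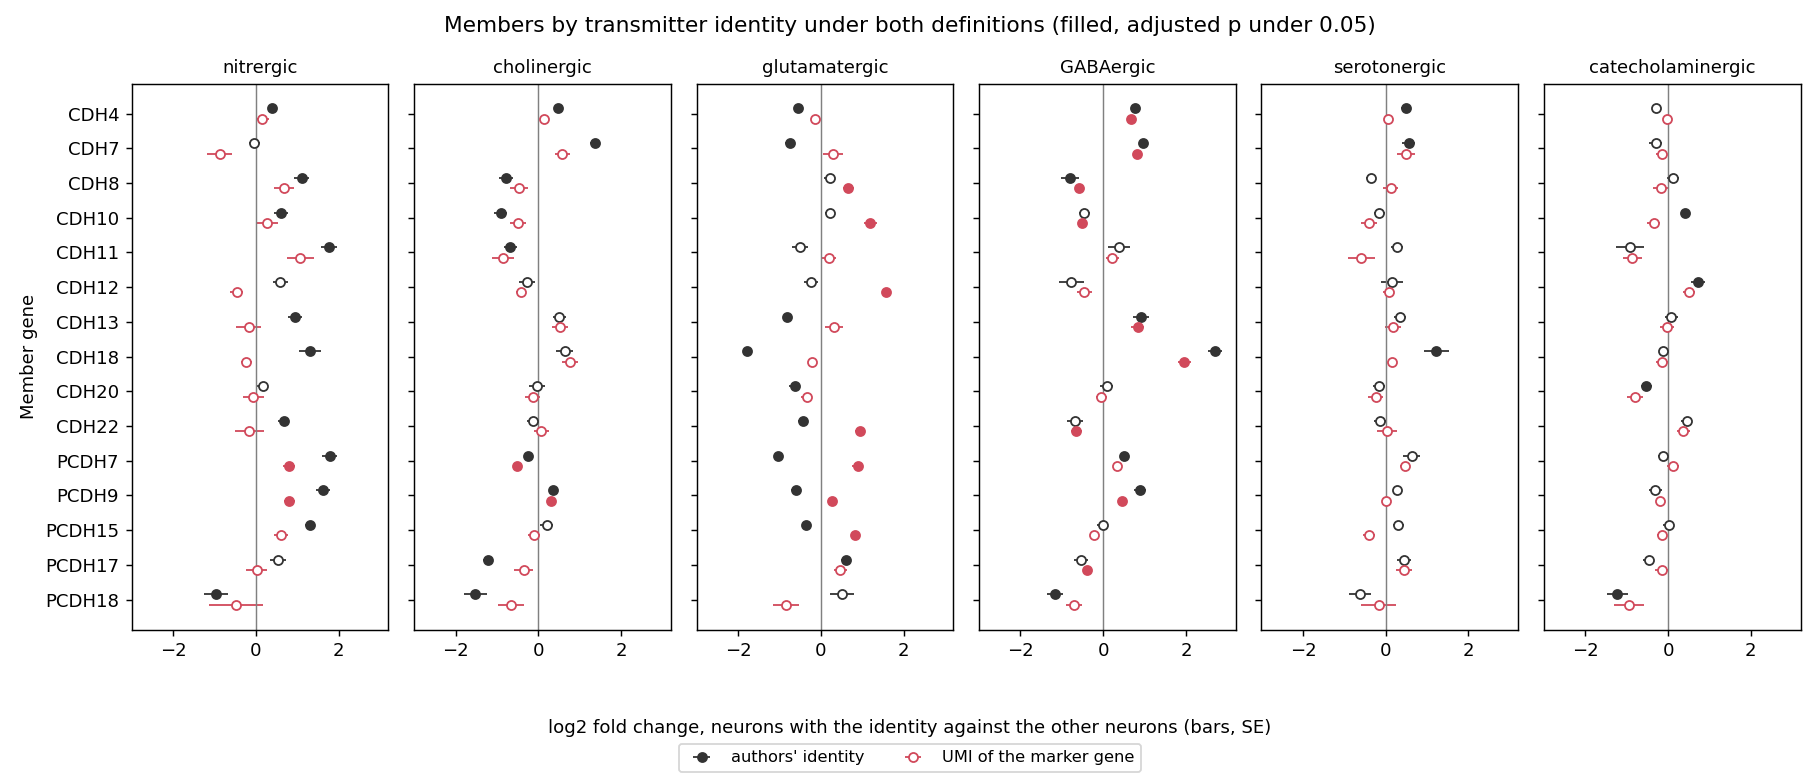
Log2 fold change ± SE of 15 members between neurons with and without each of 6 identities, by the deposited identity and by a UMI of the marker gene, with filled points for adjusted p under 0.05. CDH18 stands at 2.70 and 1.96 for GABAergic neurons, and the glutamatergic panel shows members on opposite sides of 0 for the 2 definitions, such as PCDH7 at -1.04 and 0.89.

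The treatment ended on day 20, and its comparison asked which members differed between PP121 and control samples. In neurons, edgeR's quasi-likelihood test without the day in the model called 0 of 77 members (0.0% of 21243 genes), with 2 members at an unadjusted p under 0.05. DESeq2's Wald test also called 0 members, beside 102 of 21243 genes. With the replicate number as a block, which removes the difference between days, 5 members were called, beside 14.8% of all genes. CDH12 stood at 239, 353, 349 and 448 CPM, higher with PP121 on each day, a difference of 0.48 ± 0.09 with the block (adjusted p = 3.64e-04) and 0.47 ± 0.24 without it (adjusted p = 0.476). The deposited glutamatergic share of neurons was 25.0%, 44.2%, 36.2% and 66.1%, in the same order of samples as CDH12, although CDH12 was not higher by that identity. A SLC17A6 UMI, by which CDH12 was higher, was held by 160 of 2301, 198 of 1250, 296 of 2030 and 221 of 976 neurons. CDH12 was higher with PP121 on each day both in neurons with a SLC17A6 UMI (481, 836, 697 and 959 CPM) and in those without (218, 237, 273 and 255 CPM), and the part of the neuron mixture in the pooled difference was not tested. CDH2 stood at 267, 305, 319 and 372 CPM (0.31 ± 0.09, adjusted p = 0.0145 with the block) and CDH22 at 15.2, 16.8, 22.6 and 20 CPM (0.46 ± 0.15, adjusted p = 0.035). PCDH10 stood at 49.1, 23.7, 30 and 17.2 CPM and was lower with PP121 on each day (-0.57 ± 0.13, adjusted p = 0.00336), and CDH5 stood at 7.76, 6.76, 5.70 and 2.28 CPM (-0.80 ± 0.26, adjusted p = 0.0334). Within days these differences all kept their direction, while the control and PP121 ranges overlapped for CDH12 and PCDH10. The median over members was 0.04 with the block, against -0.01 over all genes. When neurons and progenitors were reassigned by a single rule over all samples, which moved 12.9%, 19.8%, 5.52% and 7.99% of neurons to the progenitors, the block left only PCDH10 called (-0.70 ± 0.11, adjusted p = 0.0415), beside 1.17% of all genes. DESeq2 with the block called only CDH12, beside 640 of 21243 genes. Without control replicate 1, and with no block, the PCDH10 difference was 0.01. That fit set the PP121 samples of both days against a control of day 38 alone.

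In progenitors no member was called for PP121 in edgeR's filtered fits of the authors' classes, with or without the block. These fits summed 586, 608, 1197 and 501 nuclei of progenitor 1 with 1155, 683, 1107 and 855 of progenitor 2. Most members with ranges apart between these classes were lower in progenitor 1. CDH4 was higher with PP121 on each day in progenitor 1 and in progenitor 2 alike. The part of this mix in the PP121, interaction and day comparisons was not tested. The test called 0 of 71 without the block (0.0% of 20260 genes) and 0 with it, beside 1.72% of all genes, with 2 and 5 members at an unadjusted p under 0.05. DESeq2 called 0 members in both designs, beside 43 and 109 of 20260 genes. The 3 members that ranked first in the edgeR test without the block were PCDH10 at 32.1, 19.2, 18.4 and 15.2 CPM (-0.61 ± 0.25), CDH4 at 117, 119, 142 and 214 CPM (0.59 ± 0.25) and CDH1 at 1.63, 2.34, 0.736 and 1.16 CPM (-1.10 ± 0.52). For all 3 both replicates leaned the same way, and their adjusted p was 1 without the block and 0.141 to 0.502 with it. With the classes reassigned and the block, CDH4 was called (0.72 ± 0.17, adjusted p = 0.0438), beside 1.26% of all genes. The median over members was -0.08 without the block, against -0.01 over all genes.

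The difference between the PP121 changes of neurons and progenitors was tested as an interaction within samples. It called 0 of 76 members (0.0% of 21787 genes, edgeR), with 5 at an unadjusted p under 0.05 and 0 by DESeq2, which called 76 of 21787 genes. With class by replicate as a term it called CDH12 alone, beside 1.65% of all genes. CDH12 stood at 32, 37.5, 31.6 and 31.3 CPM in progenitors, and its log2 change with PP121 was 0.55 on day 42 and 0.34 on day 38 in neurons against -0.02 and -0.26 in progenitors. The interaction was 0.63 ± 0.14 with the term (adjusted p = 0.0259) and 0.63 ± 0.17 without it (adjusted p = 0.279). With reassigned classes and the term, 4 members were called, beside 1.59% of all genes, CDH12 at 0.90 ± 0.16, CDH4 at -0.79 ± 0.15, CDH22 at 0.94 ± 0.28 and CDH9 at 3.52 ± 0.72, of which the last 3 were named after their values were seen. Without PP121 replicate 1 and without the term, the differences of CDH4 and CDH18 were negative.

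The same samples were compared by day, which is also the replicate number. In neurons the test of day 42 against day 38 called 0 of 77 members (0.0% of 21243 genes, edgeR), with 10 at an unadjusted p under 0.05. DESeq2 called 0 members, beside 59 of 21243 genes. With the treatment as a term 15 were called, beside 9.49% of all genes, 9 higher and 6 lower on day 42. The largest in UMIs were PCDH9 at 1341, 1120.5, 1302 and 897 CPM (0.34 ± 0.09, adjusted p = 0.0104 with the term) and CDH18 at 547, 469, 664 and 279 CPM (0.67 ± 0.13, adjusted p = 9.04e-04). The GABAergic share of neurons was 45.2%, 26.7%, 45.5% and 17.3%, also higher on day 42. CDH18 stood at 916, 1224, 1220.4 and 1163 CPM in GABAergic neurons, with no higher level on day 42 in the control group, and at 199, 178, 277 and 107 CPM in other neurons, higher on day 42 in both groups, and the part of the mixture was not tested. PCDH10 showed the smallest p (0.88 ± 0.13, adjusted p = 3.62e-05), with both day 42 samples above both day 38 samples. CDH4, CDH7, CDH24, PCDH7, PCDH12 and PCDHGA1 were the other 6 higher on day 42, by 0.33 to 1.53. CDH2, CDH10, CDH12, CDH20, PCDH17 and PCDH18 were lower, with differences of -0.27 to -1.17. CDH20 stood at 28.8, 33.5, 24.9 and 65.6 CPM in neurons, so that PP121 replicate 2 stood apart from the other 3. Members had a median of 0.05, against 0.01 over all genes. With reassigned classes and the treatment term 3 members were called, beside 1.74% of all genes, namely PCDH10 (0.86 ± 0.11), CDH7 (0.64 ± 0.11) and CDH12 (-0.60 ± 0.08).

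In progenitors the day called 0 of 71 members without the treatment term (0.0% of 20260 genes, edgeR), with 8 at an unadjusted p under 0.05. DESeq2 called 1 member, beside 106 of 20260 genes. With the term 4 were called, beside 2.99% of all genes, all lower on day 42. CDH20 stood at 35.3, 52.4, 34 and 89.6 CPM (-1.10 ± 0.20, adjusted p = 6.08e-04), CDH23 at 33.3, 39.9, 26.9 and 66.4 CPM (-0.90 ± 0.21, adjusted p = 0.00973), PCDH18 at 20.9, 32.8, 20.8 and 38.5 CPM (-0.89 ± 0.20, adjusted p = 0.00753) and CDH11 at 18.5, 24.4, 11.9 and 27 CPM (-0.90 ± 0.22, adjusted p = 0.0131). Each was higher in PP121 replicate 2 than in the 3 other samples. The same 4 were called with reassigned classes, beside 2.37% of all genes. The 13 mesenchymal markers, all detected, summed to 247, 305, 274 and 385 CPM in progenitors and 152, 199.7, 164 and 230.0 CPM in neurons, also higher on day 38, and mesenchymal nuclei numbered 40, 408, 33 and 422. Their part in the day differences of CDH11, CDH20 and PCDH18, which were high in mesenchymal nuclei, was not tested. The median over members was -0.09, against 0.00 over all genes. Fits with a library left out leave a day with a single sample, and their calls are not given.

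**Figure D5:**
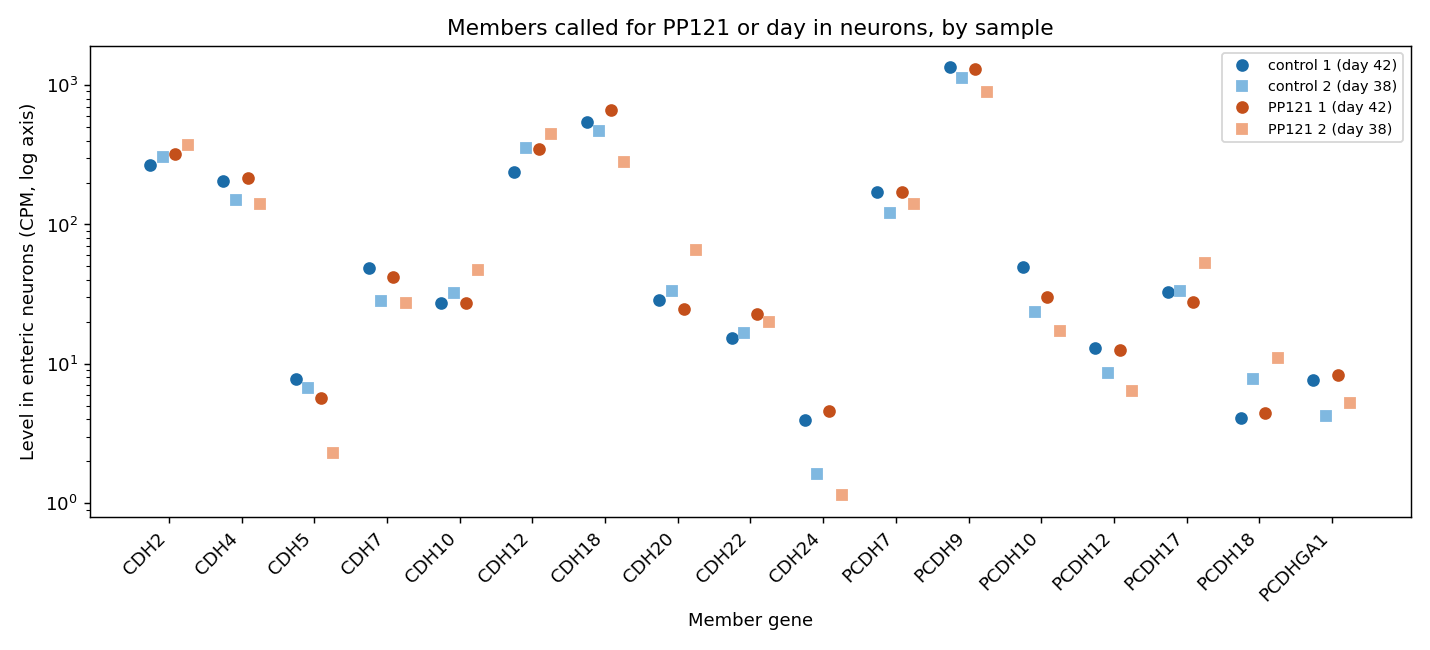
CPM on a log axis of the 17 members called in neurons for PP121 or for the day, one point per sample, with colour for the treatment and symbol for the day. CDH12 rises from 239 and 353 CPM in the control samples to 349 and 448 CPM in the PP121 samples of the same day, and PCDH10 is higher on day 42 (49.1 and 30 CPM) than on day 38 (23.7 and 17.2 CPM).

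Among the partner genes in neurons, no gene of any list was called for PP121 without the block (0.0% of all genes). Under the block, beside 14.8% of all genes, 4 of 12 catenins and cytoplasmic partners were called higher with PP121 and none lower, namely CTNNA2 (0.40 ± 0.08, adjusted p = 0.00133), CTNNA3, CTNND2 and VCL, with a list median of 0.15. Of 17 other cadherin superfamily genes tested, CLSTN2 and FAT3 were higher and CLSTN3 lower, and of 6 sheddases and gamma-secretase genes, which cut cadherins at the membrane, ADAM9 and ADAM17 were lower. TWIST1 was called higher among 4 CDH1 repressors and RAD21, a cohesin subunit used at clustered protocadherin promoters, was called lower among 5 chromatin factors. With reassigned classes and the block, beside 1.17% of all genes, FAT3 alone of these lists was called. For the day in neurons with the treatment term, beside 9.49% of all genes, CTNNA2 was higher and CTNNA1, FAT3, ADAM10, TWIST1 and ZEB1 lower on day 42. In progenitors under the block, beside 1.72% of all genes, CTNNA2 (0.77 ± 0.19) and DCHS2 were called higher with PP121. By both definitions of the GABAergic identity, CTNNA2, PCDH11X and ZEB2 were higher and FAT3 and ZEB1 lower, with CTNNA2 at 1.08 ± 0.05 by marker UMI (adjusted p = 2.90e-07). By both definitions of the cholinergic identity, CTNNA2 and PCDH11X were higher and FAT1, FAT3 and ZEB1 lower.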

How the data were processed

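Single nuclei of 4 samples were sequenced with hashtags on a droplet platform. The deposited matrices hold raw UMI counts per gene and nucleus, which the authors made with kallisto and bustools per the study's methods, while the submitters' processing notes name Cell Ranger, Seurat 4.0.4 and GRCh38. Which of these made the deposited counts, whether introns were counted and whether strand was used are not given in the sources used here, so antisense and overlapping genes cannot be separated. The authors' deposited annotation gives the class, the transmitter identities and the day of each nucleus, and its percent of mitochondrial counts was not used for any comparison. The sample of a nucleus was taken from the labels, since a sample column in the annotation disagrees with them for the controls. Nuclei marked as filtered were left out, and no doublet caller was run. Some filtered control nuclei lay within the ranges of UMIs, genes and mitochondrial share of the kept ones, and nearly no filtered PP121 nuclei did. There were 0 columns of other samples.

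Counts were summed per sample and class (enteric neurons, or both progenitor classes together) or per sample and identity, and tested over all genes with edgeR 4.0.16 (filterByExpr, TMM, quasi-likelihood test, Benjamini-Hochberg adjustment, threshold 0.05) and limma 3.58.1 in R 4.3.3. The main treatment and day tests had no further term, identity tests had the sample as a block, and the same replicate number paired samples in an added fit. Same-numbered samples deviated together, with correlations of 0.421 in neurons and 0.284 in progenitors. The annotation gives them the same day, and day and other traits of the replicate number cannot be told apart as a source of these correlations. The samples are the replicates, with 2 per group, so p-values measure only the spread between these samples.

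Alternatives were DESeq2 1.42.0 (test and size factors), no filter on low counts, each library left out, the block, identity by a UMI of the marker gene, neurons with 1 identity, classes reassigned by one rule, nuclei above the 95th percentile of UMIs left out, and thinning to 1000 or 2000 UMIs. DESeq2 and the omission of high-UMI nuclei with the block, and reassigned classes with the treatment term, were chosen after seeing the data. Python 3.11.15 with numpy 2.4.6, scipy 1.17.1, pandas 2.3.3 and matplotlib 3.10.9 did the sums and plots. The tests were tested on simulated data. Positions are from GENCODE release 29 and promoters from RefSeq on GRCh38.p14. Named members were those called with or without the block (at most 10 each way, or the 3 with the smallest p), those with a mean of at least 20 CPM in a named class, and a fixed set of 18. The members and lists were chosen with earlier results of these data known.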

Additional observations from a re-analysis of the deposited data

Results flagged for a closer look

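CDH12 was flagged for a PP121 change that differed between neurons and progenitors with class by replicate as a term. It was the only member called of 76, beside 1.65% of all genes, and without the term no member was called. In neurons it stood at 239, 353, 349 and 448 CPM (control replicates 1 and 2, then PP121 replicates 1 and 2) and in progenitors at 32.0, 37.5, 31.6 and 31.3 CPM. The log2 difference of the changes was 0.63 ± 0.14 with class by replicate as a term (edgeR quasi-likelihood test, adjusted p = 0.0259) and adjusted p = 0.279 without it. In neurons CDH12 was higher with PP121 on both days and in progenitors on neither. The deposited glutamatergic share of neurons, 25.0%, 44.2%, 36.2% and 66.1%, ran in the same order of samples, but CDH12 was not higher by that identity. A SLC17A6 UMI was held by 160 of 2301, 198 of 1250, 296 of 2030 and 221 of 976 neurons, and CDH12 was higher in these by 1.59 ± 0.11. The part of the neuron mixture in the difference was not tested.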

How the results depend on the processing

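Of the differences of members named from the tests, recomputed under the alternatives, 594 kept their direction and side of the threshold, 157 lost the threshold, 52 gained it and 20 reversed. These members were picked because they were called or ranked first, and counts of calls, levels and shares are not in these numbers. The reference for PP121, the day and the interaction was the fit without the block or term. Members called only with the block or term count as kept where they stayed uncalled, so these numbers do not measure how stable the calls are. Fits with 1 library left out are included, also those that leave a group with a single sample. For PP121 in neurons, the replicate block gave 5 called members in place of 0, the block with reassigned classes 1, with DESeq2 1 and without nuclei of high UMI count 6. Over all genes these 4 fits called 3152 of 21243, 246 of 21026, 640 of 21243 and 3153 of 20772. For PP121 in progenitors, no filter on low counts gave 2 (270 of 31187 genes) and reassigned classes with the block 1 (261 of 20683 genes). For the interaction, no filter gave 2 (514 of 32517 genes), the replicate block 1 (360 of 21787) and the block with reassigned classes 4 (350 of 22021). For the day in neurons, the treatment term gave 15 (2015 of 21243 genes), and with reassigned classes 3 (365 of 21026). For the day in progenitors, DESeq2 gave 1 (106 of 20260 genes), the treatment term 4 (606 of 20260), and the term with reassigned classes 4 (491 of 20683). Leaving out 1 library left a group of the treatment, interaction and day tests with a single sample, so those calls are not given.

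In this paragraph the genes called of all genes tested follow in brackets. DESeq2 gave 9 calls for nitrergic (1614 of 19027), 7 for cholinergic (1499 of 19542), 2 for serotonergic (1189 of 19341) and 1 for catecholaminergic neurons (512 of 18260). A marker UMI gave 2 for nitrergic (195 of 18942), 2 for cholinergic (483 of 19061), 8 for glutamatergic (1477 of 18259), 0 for serotonergic (2 of 18813) and 0 for catecholaminergic neurons (92 of 18436). Neurons with 1 identity gave 9 for nitrergic (1082 of 15659), 1 for cholinergic (94 of 15015), 8 for glutamatergic (1551 of 14342), 2 for GABAergic (240 of 15600) and 2 for serotonergic neurons (213 of 15380). No filter gave 17 for GABAergic (2395 of 31545), 7 for serotonergic (3213 of 31545) and 11 for catecholaminergic neurons (1669 of 31545). Leaving out 1 library gave 9 to 14 calls for nitrergic (1243 to 2256 genes), 6 to 12 for cholinergic (1062 to 2413), 8 to 13 for glutamatergic (1196 to 2464), 6 to 13 for GABAergic (733 to 1595), 0 to 8 for serotonergic (140 to 2586) and 1 to 5 for catecholaminergic neurons (226 to 1165). These fits tested 17505 to 19823 genes. The share of neurons with a CDH18 UMI was 32.1% without thinning, and 20.4% to 25.2% with 1 library left out.

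Reversed log2 differences included PCDH10 with PP121 in neurons, which was 0.01 without control replicate 1 and ranged from -1.02 to 0.01 with 1 library left out. The fit without control replicate 1 set PP121 samples of both days against a control of day 38 alone. Within each day PCDH10 was lower with PP121. By marker UMI they were, in nitrergic neurons, -0.16 for CDH22, -0.18 for CDH13 and -0.23 for CDH18, in catecholaminergic neurons -0.34 for CDH10, and in glutamatergic neurons 0.89 for PCDH7, 0.32 for CDH13, 0.20 for CDH17, 0.29 for CDH7, 0.26 for PCDH1, 0.27 for PCDH9, 0.32 for CDH3, 0.95 for CDH22, 0.10 for CDHR3 and 0.82 for PCDH15. In neurons with 1 identity they were -0.20 for CDH10 (nitrergic), -0.41 for CDH13 and -0.41 for CDH7 (GABAergic), and -0.06 for CDH7 and -0.50 for CDH18 (serotonergic). The cause was not tested for any of these.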
